A study of Mus musculus with 20 samples.

Results

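The genes described here are 10 transcripts of blood vessels and of the signals that vessels answer to: Pecam1, Cdh5, Kdr, Flt1, Tek, Emcn, Vwf, Vegfa, Angpt1 and Angpt2. They were chosen by symbol, with earlier results of these data known. All 10 were found in each of the 4 deposited expression tables, among 16762 genes listed in every table and 24413 listed in any. Levels are given in FPKM, a count of sequenced fragments divided by the length of the transcript and by the size of the library, so levels of different genes are compared per length.

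Messenger RNA was sequenced from 20 mouse libraries. Whole tibialis anterior (TA, a muscle of the lower leg) gave 12 of them. In 6, male C57BL/6J mice had eaten AIN-76A chow, either plain (control) or with 200 mg/kg of the CSF1R inhibitor PLX73086 (PLX), for 3 weeks. Both diets were then withdrawn for 3 days, the TA was injured, and muscle was taken after 12 h (1 library per diet) or 18 h (2 libraries per diet). The other 6 whole muscles came from 8-month-old female DMDmdx mice, which lack dystrophin and lose and regrow muscle fibres throughout life, after 6 months on PLX (3 libraries) or control diet (3 libraries). Of these, 1 PLX and 2 control mice also carried the PDGFRaEGFP reporter. Sorted cells gave the other 8 libraries. Resident macrophages (CD45+ CD11B+ LY6G- F4/80+ MERTK+) of uninjured muscle of male Cx3cr1-GFP mice were split into 4 gates by MHCII and GFP, with 1 library per gate. Infiltrating cells (PI- CD45+ CD11B+ LY6G/SIGLECF- GFP+) came from injured TAs of the wild-type partner of female parabiotic WT/GFP pairs, with 1 library for day 2, 2 for day 4 and 1 for day 6. CSF1R is the receptor through which macrophages receive survival signals. The labels name no agent of injury, and no uninjured whole muscle of C57BL/6J mice was analysed here.

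Endothelial cells line every vessel. They hold together through junction proteins, among them VE-cadherin (Cdh5) and the adhesion molecule PECAM-1 (Pecam1). They sense vascular endothelial growth factors (VEGFs) through receptor kinases on their surface: the VEGF-A receptor encoded by Kdr drives sprouting and survival, and the receptor encoded by Flt1 binds the same ligand tightly and limits its action. A parallel pathway runs through Tek, the receptor for angiopoietins. Angpt1, made largely by cells around the vessel, activates Tek and keeps vessels quiet, while Angpt2, released by endothelial cells themselves, often blocks that signal and loosens the vessel wall. Skeletal muscle is densely supplied with capillaries, and its fibres are a main source of VEGF-A.

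Promoter sequences were taken from RefSeq (build GRCm38.p6, which the authors' mm10 coordinates share), where 5 of the 10 genes had an entry. The 250 bases before the start are shown for the 3 receptors and the ligand whose transcripts the comparisons turn on, each 5′ to 3′ on the strand of its gene. Capitals mark GGAAG or its reverse complement CTTCC, the core of many sites of ETS factors, a family that includes regulators of endothelial genes.
Kdr, chr5:75978456-75978705, minus strand: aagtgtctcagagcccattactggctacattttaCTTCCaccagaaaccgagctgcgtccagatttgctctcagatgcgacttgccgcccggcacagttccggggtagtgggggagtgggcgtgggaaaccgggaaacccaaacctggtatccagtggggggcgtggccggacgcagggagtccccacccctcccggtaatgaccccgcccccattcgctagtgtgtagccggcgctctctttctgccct
Flt1, chr5:147726012-147726261, minus strand: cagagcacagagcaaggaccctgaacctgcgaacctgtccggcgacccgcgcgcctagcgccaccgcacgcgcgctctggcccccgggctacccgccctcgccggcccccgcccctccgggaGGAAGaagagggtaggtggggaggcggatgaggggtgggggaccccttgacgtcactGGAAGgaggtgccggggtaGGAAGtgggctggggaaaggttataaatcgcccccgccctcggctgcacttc
Tek, chr4:94739039-94739288, plus strand: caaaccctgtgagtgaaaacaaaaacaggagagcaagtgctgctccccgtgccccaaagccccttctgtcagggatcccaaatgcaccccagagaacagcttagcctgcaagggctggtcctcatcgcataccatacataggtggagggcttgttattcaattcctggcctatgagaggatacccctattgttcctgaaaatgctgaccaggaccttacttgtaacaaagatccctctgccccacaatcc
Vegfa, chr17:46032378-46032627, minus strand: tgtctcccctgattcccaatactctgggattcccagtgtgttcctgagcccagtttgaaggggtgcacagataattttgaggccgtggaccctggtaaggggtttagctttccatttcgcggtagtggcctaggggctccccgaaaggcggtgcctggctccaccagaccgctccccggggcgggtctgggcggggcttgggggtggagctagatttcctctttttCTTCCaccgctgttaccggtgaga

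On either strand, GGAAG occurred at positions -128, -71 and -52 before the Flt1 start, at -216 before the Kdr start and at -24 before the Vegfa start, where a position is that of the leftmost base of the match and -1 is the base just before the start. The Tek window held no match, and that of Emcn, not shown, held 2. The motif is common: it stands in 64.1% of the 32851 promoter windows of the same length. The core of the hypoxia response element, ACGTG on either strand, stands in 16.6% of all windows and in none of these 5. A second RefSeq start of Vegfa lies inside the gene, and its window, not shown, held 1 ACGTG at -211 and 1 GGAAG at -10. In the authors' tables Kdr spans chr5:75933270-75978428 and Flt1 spans chr5:147562196-147725988. Tek lies at chr4:94739289-94874976 and Vegfa at chr17:46016993-46032377. Cdh5 lies at chr8:104088916-104144502, and Pecam1 at chr11:106654213-106715281.

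The files give FPKM and no counts, so the absolute depth of most libraries is unknown. Only the table of infiltrating cells gives alignments, which ranged from 25953400 to 34655400 per library. From the spacing of the lowest values, relative depth within a table spanned 0.624 to 1 in injured muscle and 0.847 to 1.13 in mdx muscle. Sums of FPKM over all genes ranged from 486206 to 749788 in injured muscle and from 562270 to 634485 in mdx muscle. The 4 tables were normalized separately, so levels set side by side across them are descriptive. The labels do not say whether libraries of a group came from separate mice, so the p-values measure the spread between these libraries.

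At 12 h after injury the vessel-wall transcripts stood above their levels at 18 h. Mean FPKM at 12 h was 1.56-fold that at 18 h for Pecam1, 2.09-fold for Cdh5, 2.60-fold for Kdr, 2.68-fold for Flt1 and 2.29-fold for Angpt2. None of the 9 genes that could be tested passed the adjusted threshold of 0.05 in limma, where 9 of 11578 genes did (0.0777%). At an unadjusted p under 0.05 the count was 7 of 9, against 19.7% of all genes tested. In bulk muscle, fewer cells of a type and less RNA per cell cannot be told apart.

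**Figure D1:**
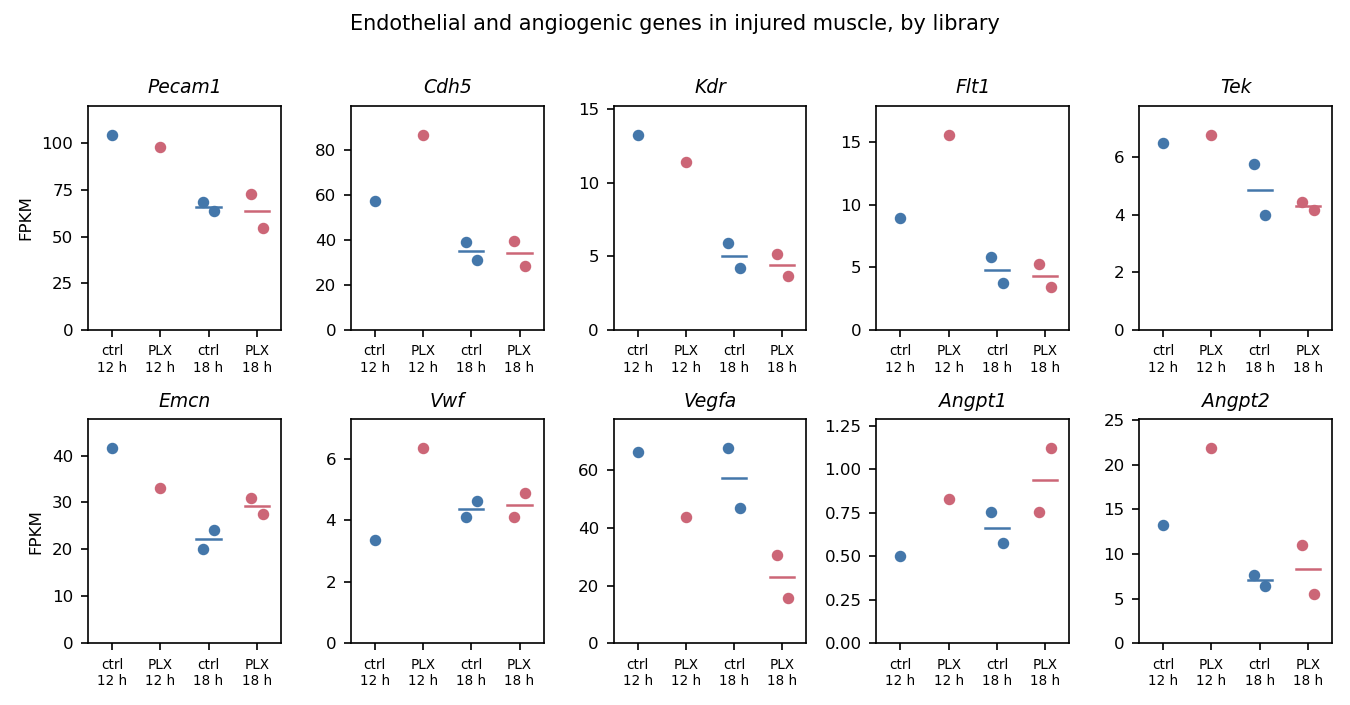
FPKM of the 10 genes in injured muscle, 1 point per library, by diet and hours after injury, on linear axes that start at 0. Bars mark the mean of the 2 libraries at 18 h. For Kdr both 12 h libraries, at 11.4 and 13.2 FPKM, lie above all 4 at 18 h, which span 3.68 to 5.92.

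Of the junction genes, Cdh5 measured 57.5 FPKM in the control library and 86.7 in the PLX library at 12 h. At 18 h it measured 38.9 and 31.1 FPKM in the control libraries and 39.7 and 28.3 in the PLX libraries. Both 12 h libraries were above all 4 at 18 h, and the log2 change from 12 h to 18 h, on log2(FPKM + 1), was -1.03 (SE 0.221, limma adjusted p = 0.109). Pecam1 measured 105 FPKM (control) and 98.2 (PLX) at 12 h, against 68.4 and 63.8 (control) and 72.7 and 54.7 (PLX) at 18 h. Its groups did not overlap either, with a log2 change of -0.64 (SE 0.165, limma adjusted p = 0.132).

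The VEGF receptors showed the widest separation by time. Kdr measured 13.2 FPKM in the control and 11.4 in the PLX library at 12 h. At 18 h it measured 5.92 and 4.18 FPKM in the control libraries and 5.18 and 3.68 in the PLX libraries. The lowest 12 h value was thus above the highest at 18 h in both diets, and the log2 change was -1.23 (SE 0.182, limma adjusted p = 0.0744). Flt1 measured 8.92 FPKM (control) and 15.6 (PLX) at 12 h, against 5.83 and 3.77 (control) and 5.27 and 3.40 (PLX) at 18 h. Here too the times did not overlap, although the 2 libraries at 12 h differed from each other by 1.74-fold, and the log2 change was -1.23 (SE 0.267, limma adjusted p = 0.109).

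The angiopoietin pathway was split. Angpt2 measured 13.2 FPKM (control) and 21.8 (PLX) at 12 h, and 7.66 and 6.45 (control) and 11.0 and 5.57 (PLX) at 18 h. All 4 libraries at 18 h lay below both at 12 h, with a log2 change of -1.09 (SE 0.263, limma adjusted p = 0.117). Its receptor Tek measured 6.48 and 6.76 FPKM at 12 h (control and PLX) and 5.74, 3.97, 4.43 and 4.15 at 18 h (control, then PLX). The times did not overlap for Tek, and the log2 change was -0.46 (SE 0.164, limma adjusted p = 0.204). Angpt1 stayed low in every injured library, with 0.503 (control) and 0.830 FPKM (PLX) at 12 h, 0.753 and 0.576 in the controls at 18 h and 0.752 and 1.12 with PLX at 18 h. It averaged under 1 FPKM and was not tested. Without that filter its log2 change was 0.11 (SE 0.105, limma adjusted p = 0.884), and its times overlapped.

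Emcn, a mucin of capillary and venous endothelium, measured 41.5 FPKM (control) and 33.0 (PLX) at 12 h, and 20.1, 24.2, 30.9 and 27.5 at 18 h (control, then PLX). Its times did not overlap, but the 12 h value was 1.87-fold the 18 h mean on the control diet and 1.13-fold on PLX. The log2 change was -0.53 (SE 0.197, limma adjusted p = 0.218). Vwf, the clotting glycoprotein stored in endothelial cells and platelets, differed from the others. It measured 3.37 FPKM (control) and 6.33 (PLX) at 12 h and 4.09, 4.62, 4.10 and 4.87 at 18 h (control, then PLX). The 2 values at 12 h were the lowest and the highest of the 6, and the log2 change was -0.07 (SE 0.193, limma adjusted p = 0.871).

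Vegfa, the ligand, measured 66.5 FPKM (control) and 43.8 (PLX) at 12 h, and 67.7, 47.0, 30.5 and 15.7 at 18 h (control, then PLX). Times overlapped, with 1 control library at 18 h above both at 12 h, and the log2 change was -0.60 (SE 0.312, limma adjusted p = 0.330). In all, 7 of the 9 tested genes had every 18 h library below both at 12 h, against 10.2% of all genes tested. All 9 log2 changes were negative, against 48.4% of all genes, and their median was -0.64, against 0.01 for all genes.

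Other endothelial genes stood the same way round. All 26 of 26 transcripts of a list of endothelial markers had a negative log2 change (median -0.53), against 48.4% of all genes tested. Of them 18 were lower at 18 h without overlap between times, against 10.2% of all genes. An unadjusted p under 0.05 was found for 16, against 19.7% of all genes, and none passed the adjusted threshold. Like the 10 genes, this list and those below were chosen with earlier results of these data known, so the shares beside them are descriptions. The most abundant were Cldn5, a tight junction protein (-0.80, limma adjusted p = 0.109), and Egfl7, a matrix protein secreted by endothelium (-0.26, limma adjusted p = 0.582). Of 16 tested tip cell and Notch genes, which steer sprouting, none passed and 14 were negative (median -0.65), with 11 at an unadjusted p under 0.05. Their most abundant members were Pdgfb, which recruits pericytes (-0.87, limma adjusted p = 0.140), and Apln, a peptide ligand made by sprouting endothelium (-0.78, limma adjusted p = 0.149).

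The VEGF list without the 10 genes had 7 tested members, of which none passed, 5 were negative and 4 had an unadjusted p under 0.05. Over all genes tested, 48.4% were negative and 19.7% had an unadjusted p under 0.05. Pgf, a ligand of Flt1, had a log2 change of -0.88 (limma adjusted p = 0.173), and Vegfb, another ligand of Flt1, had -0.58 (limma adjusted p = 0.154). In the angiopoietin list 6 of 7 tested members were negative, 4 had an unadjusted p under 0.05 and none passed. Tie1, the partner receptor of Tek, had a log2 change of -0.36 (limma adjusted p = 0.209), and Akt1, a kinase downstream of it, had 0.05 (limma adjusted p = 0.854). Among 17 tested hypoxia-response genes 13 were negative, 6 had an unadjusted p under 0.05 and none passed. Ldha, a glycolytic enzyme, had -0.05 (limma adjusted p = 0.933) and Hk2, hexokinase, had -0.55 (limma adjusted p = 0.269).

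A list of activated endothelium, made of adhesion molecules and the chemokine-binding receptor Ackr1, did not share one direction. Of 5 tested, 3 were positive and 2 negative, 2 had an unadjusted p under 0.05 and none passed. The shares of all genes tested were 48.4% negative and 19.7% at an unadjusted p under 0.05. Ackr1, which venules make, had a log2 change of 0.45 (limma adjusted p = 0.401). Icam2, an endothelial adhesion molecule that is also among the 26 endothelial markers, had -0.60 (limma adjusted p = 0.109). Of 9 tested angiogenesis inhibitors 7 were negative, 5 had an unadjusted p under 0.05 and none passed. Serpinf1, which encodes a secreted antiangiogenic serpin, had 0.13 (limma adjusted p = 0.815), and Thbs1, thrombospondin, had -1.13 (limma adjusted p = 0.148).

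Other cell types differed between the same libraries. The summed FPKM of a list of pericyte and smooth muscle markers was 239 (control) and 189 (PLX) at 12 h and 70.9 to 114 at 18 h, with 9 of 9 tested members negative (median -1.14) and none past the threshold. Neutrophil markers summed to 948 and 1766 FPKM at 12 h and 569 to 1134 at 18 h, with 6 of 6 negative. Macrophage markers summed to 696 and 702 FPKM at 12 h and 800 to 1932 at 18 h. Muscle fibre markers summed to 97668 (control) and 36844 FPKM (PLX) at 12 h, and to 72456 to 90651 (control) and 31654 to 42188 (PLX) at 18 h. Red cell markers summed to 356 and 639 FPKM at 12 h and 353 to 2488 at 18 h. Among them Hbb-bs, an adult beta-globin, was the 1 gene of all lists to pass between times (log2 change 4.40, limma adjusted p = 0.00115). It stood at the lowest value of the table, 0.01 FPKM, in both 12 h libraries, and at 18 h measured 19.2 and 25.9 FPKM (control) and 15.3 and 22.6 (PLX). Its near-identical copy Hbb-bt measured 77.2 and 173 FPKM at 12 h and 80.5 to 505 at 18 h, so the split of reads between the copies is uncertain, and a fitted change against that lowest value is no measure of the fold. The part of these cells in the endothelial values was not tested.

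Library titles open with the number 178 for replicate 2 of both 18 h groups and with 180 for the other 4, and the labels do not say what it means. The 2 libraries of 18 h with 180 were compared with the 2 of 12 h by adding that number to the model. The log2 change was then -1.02 for Kdr (limma adjusted p = 0.355), -0.97 for Flt1 (limma adjusted p = 0.431) and -0.83 for Cdh5 (limma adjusted p = 0.443), and all 9 stayed negative. Libraries with 178 are all of 18 h and give no value of their own. The values also depended on which 12 h library was used. Without the control library of 12 h, 1901 genes passed in all, and among them were Cdh5 (-1.34, limma adjusted p = 0.0308), Flt1 (-1.66, limma adjusted p = 0.0308) and Kdr (-1.20, limma adjusted p = 0.0391), where the lone 12 h library was assumed to vary like those of 18 h. Emcn was then at -0.18 (limma adjusted p = 0.488). Without the PLX library of 12 h the values were -0.71 for Cdh5 (limma adjusted p = 0.329), -0.80 for Flt1 (limma adjusted p = 0.354), -1.25 for Kdr (limma adjusted p = 0.202) and -0.88 for Emcn (limma adjusted p = 0.198). Pecam1 stood at -0.63 without the control and -0.66 without the PLX library of 12 h. Pecam1 and Kdr thus moved little with the choice of 12 h library, while Cdh5, Flt1 and Emcn moved by more. Vegfa was at -0.96 without the control and -0.23 without the PLX library of 12 h, and Vwf, at -0.42 and 0.29, changed sign.

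Some of the 10 genes differed from 12 h to 18 h by more, and some by less, than the junction genes of the same library. Each gene was set against the mean log2(FPKM + 1) of Pecam1 and Cdh5, as a description without a test. On that scale Kdr was lower at 18 h by a log2 difference of -0.39, with no overlap between times. Its nearest values were -2.91 in the PLX library of 12 h and -2.93 in control replicate 1 of 18 h. Tek was higher by 0.37, Vwf by 0.77 and Angpt1 by 0.94, each without overlap. Pecam1 and Cdh5 were themselves lower at 18 h (-0.64 and -1.03), so a gene that did not change stands higher on this scale. The share of all genes without overlap on it was not computed. As a percent of the FPKM of Cdh5, both Kdr and Tek overlapped. Kdr stood at 13.1% in the PLX library of 12 h, and at 15.2% and 13.4% in the control libraries of 18 h. Tek stood at 11.3% in the control library of 12 h and 11.2% in PLX replicate 1 of 18 h. On the log2 scale Flt1 (-0.39), Angpt2 (-0.26), Emcn (0.31) and Vegfa (0.24) overlapped.

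The next comparison asked what the earlier diet did to these genes after injury. None of the 9 tested genes passed between PLX and control, where 1349 of 11578 genes did (11.7%), and 1 had an unadjusted p under 0.05, against 30.8% of all genes. That gene was Vegfa. The other 8 had log2 changes between -0.17 and 0.32, and their diets overlapped.

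Vegfa measured 66.5 FPKM in the control library and 43.8 in the PLX library at 12 h. At 18 h it measured 67.7 and 47.0 FPKM on control diet and 30.5 and 15.7 on PLX. Every PLX library lay below every control library. Within each time, that was so for 23.3% of all genes tested, and the share over both times was not computed. The control mean was 1.52-fold the PLX value at 12 h and 2.48-fold the PLX mean at 18 h. The log2 change was -1.08 (SE 0.294, limma adjusted p = 0.0611), just outside the threshold. It passed with the 18 h libraries alone (-1.32, limma adjusted p = 0.0408) and when only genes averaging 5 FPKM or more were kept (limma adjusted p = 0.0495). Over all settings its adjusted p ran from 0.0408 to 0.297, and its log2 change from -1.32 to -0.75.

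Vegfb, which is abundant in muscle and acts through Flt1, fell on PLX and was the 1 gene of 7 in the VEGF list to pass. The other 6 were positive, the median of the 7 was 0.20, and 3 had an unadjusted p under 0.05, against 30.8% of all genes. Vegfb measured 67.2 FPKM in the control and 42.8 in the PLX library at 12 h, and 56.5 and 43.0 FPKM (control) against 26.0 and 25.6 (PLX) at 18 h. Every PLX library was below every control library, with a log2 change of -0.82 (SE 0.154, limma adjusted p = 0.0255). The adjusted p was 0.0538 with the title number as a term and 0.0797 to 0.104 without any 1 of the 18 h libraries, while the log2 change over all settings ran from -0.91 to -0.68. Of the muscle fibre markers 4 of 8 passed in the same libraries, all lower, with a median log2 change of -1.30 (0 of 8 and -0.23 with quantile normalization), while all 8 macrophage markers were positive, 3 of them passing, with a median of 0.80. The part of fibre and macrophage content in the Vegfa and Vegfb values was not tested.

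Figf, which encodes VEGF-D, stood the other way from Vegfa and Vegfb after injury. It measured 1.60 FPKM in the control and 4.33 in the PLX library at 12 h, and 3.58 and 4.88 FPKM (control) against 5.33 and 7.00 (PLX) at 18 h. Diets overlapped over both times but not within a time, and the log2 change was 0.65 (SE 0.192, limma adjusted p = 0.0748). Nrp1, a coreceptor for VEGF, had 0.46 (limma adjusted p = 0.0828), and Pgf had 0.20 (limma adjusted p = 0.642).

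**Figure D2:**
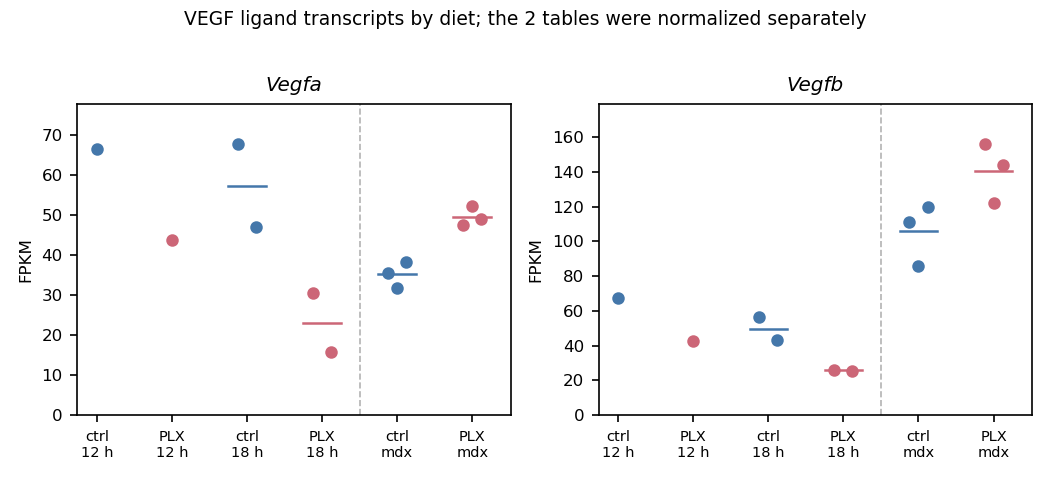
FPKM of Vegfa and Vegfb in whole muscle, 1 point per library, by diet and hours after injury and, right of the dashed line, in mdx muscle, on linear axes that start at 0. Bars mark means of groups with more than 1 library. PLX libraries lie below controls of the same time after injury and above controls in mdx muscle, where Vegfa spans 47.5 to 52.2 FPKM on PLX and 31.7 to 38.3 on control diet.

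Values for the receptors and junction genes stood close between diets. At 18 h Kdr averaged 5.05 ± 1.23 FPKM on control diet and 4.43 ± 1.06 on PLX (SD, n = 2 each). Cdh5 averaged 35.01 ± 5.54 FPKM on control diet and 34.0 ± 8.06 on PLX (SD, n = 2 each), and Pecam1 66.1 ± 3.23 and 63.7 ± 12.7 (SD, n = 2 each). Over both times the log2 change by diet was -0.07 for Pecam1 (limma adjusted p = 0.780), 0.16 for Cdh5 (limma adjusted p = 0.638), -0.17 for Kdr (limma adjusted p = 0.541) and 0.17 for Flt1 (limma adjusted p = 0.691). With the 18 h libraries alone those of Cdh5 and Flt1 had the opposite sign, at -0.05 and -0.12.

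The log2 change by diet was -0.07 for Tek (limma adjusted p = 0.795), 0.32 for Angpt2 (limma adjusted p = 0.421), 0.15 for Emcn (limma adjusted p = 0.626) and 0.27 for Vwf (limma adjusted p = 0.358). Angpt1, not tested, averaged 0.901 ± 0.194 FPKM on PLX and 0.611 ± 0.129 on control diet (SD, n = 3 each). Without the filter on low values its log2 change was 0.24 (limma adjusted p = 0.394). Of the 26 endothelial markers none passed and none had an unadjusted p under 0.05, against 30.8% of all genes. Of them 11 were positive and 15 negative, and the median was -0.03 (0.01 with upper quartile scaling, when 16 were positive).

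Genes around the pathway passed in small numbers, where 5.42% of all tested genes were higher and 6.23% lower on PLX. Of the 17 genes of all lists that passed between diets, 13 passed without either 12 h library, and 0 or 1 passed without any 1 of the 18 h libraries. Their log2 changes kept one sign in all 14 other settings, though not always their size. They ran from -1.79 to -1.37 for Hk2, 1.01 to 1.26 for Itgam, a macrophage integrin, and 0.50 to 0.61 for Icam1. Fibre markers had wider ranges, from -1.41 to -0.062 for Ckm and -1.46 to -0.085 for Tnnt3, nearest 0 with quantile normalization. These settings share most of their libraries, so a kept sign is a weak check.

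In the hypoxia list 2 of 17 passed, both lower on PLX. They were Hk2, with a log2 change of -1.62 (limma adjusted p = 0.0169), and Egln1, an oxygen-sensing prolyl hydroxylase, with -0.71 (limma adjusted p = 0.0306). The list as a whole had no common direction: 9 members were positive and 8 negative, with a median of 0.05. An unadjusted p under 0.05 was found for 7 members, against 30.8% of all genes. Ldha (-0.72, limma adjusted p = 0.0986) and Pgk1, another glycolytic enzyme (-0.46, limma adjusted p = 0.110), did not pass. Positive among those 7 were Hif1a, a subunit of the hypoxia-inducible factor (0.67, limma adjusted p = 0.0677), and Adm, the peptide adrenomedullin (0.57, limma adjusted p = 0.0774), which were named after their values were seen.

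In the angiopoietin list 1 of 7 passed, Pik3ca, a lipid kinase subunit, which fell (-0.52, limma adjusted p = 0.0460). Of 9 angiogenesis inhibitors 1 passed, Vasn, a protein that binds TGF-beta, which fell (-0.74, limma adjusted p = 0.0312). It was the 1 negative member: the other 8 were positive, and the median of the 9 was 0.37. An unadjusted p under 0.05 was found for 3, against 30.8% of all genes. Thbs1 had a log2 change of 0.94 (limma adjusted p = 0.0858) and Serpinf1 of 0.46 (limma adjusted p = 0.272).

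Icam1, an adhesion molecule that endothelium and leukocytes use, rose on PLX (0.54, limma adjusted p = 0.0356). It was the 1 of 5 tested genes of the activated endothelium list to pass. It measured 17.6 FPKM in the control and 23.7 in the PLX library at 12 h, and 10.8 and 10.3 FPKM (control) against 17.0 and 16.2 (PLX) at 18 h. The highest control value exceeded the PLX values of 18 h, but within each time every PLX library was higher. None of 16 tip cell and Notch genes passed, with 4 at an unadjusted p under 0.05, against 30.8% of all genes. Platelet markers, which can share Vwf with endothelium, had 2 of 3 tested members higher on PLX, Pf4 (0.96, limma adjusted p = 0.0354) and Ppbp (1.74, limma adjusted p = 0.0240). The other, Itga2b, had 0.17 (limma adjusted p = 0.645). The same list summed to 1552 to 2426 FPKM in sorted resident macrophages, where Gp6 was not above 0.01 FPKM. The part of macrophages in the platelet marker values was not tested. The diet also went with higher S100a9, a neutrophil gene (0.91, limma adjusted p = 0.0474), and lower Pdpn, which lymphatic endothelium and fibroblasts make (-0.95, limma adjusted p = 0.0249). The 4 tested lymphatic markers, Pdpn among them, had no common direction, with 2 positive, 2 negative and a median of -0.01. Lyve1, another of them, had 0.94 (limma adjusted p = 0.0932).

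The diet effect at 18 h was set against that at 12 h in a test of the difference. None of the 9 genes passed, where 7 of 11578 did (0.0605%), and 2 had an unadjusted p under 0.05, against 23.3% of all genes. Emcn had a difference of 0.71 between the diet effect at 18 h and that at 12 h (limma adjusted p = 0.181), and Vwf had -0.71 (limma adjusted p = 0.182). The signs follow from the values: at 12 h the PLX library was at 0.795-fold of the control for Emcn and 1.88-fold for Vwf, and at 18 h at 1.31-fold and 1.03-fold. Flt1 had -0.86 (limma adjusted p = 0.292), Cdh5 -0.64 (limma adjusted p = 0.329) and Vegfa -0.73 (limma adjusted p = 0.475).

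**Figure D3:**
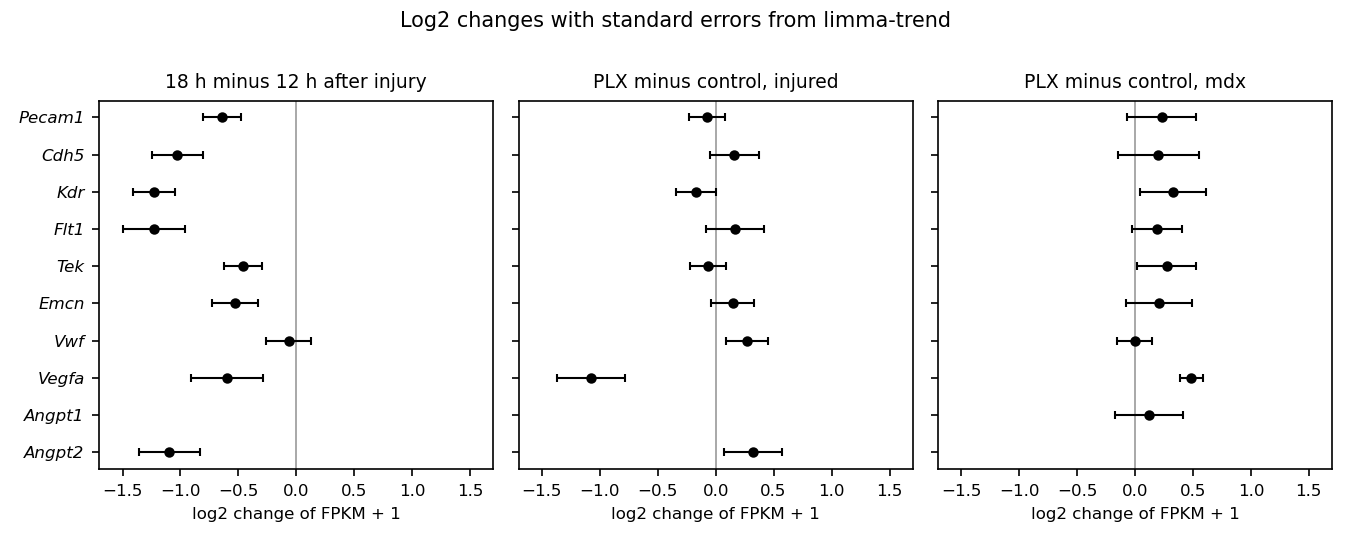
Log2 changes of FPKM + 1 with standard errors from limma for the tested genes, in the comparison of times and of diets after injury (6 libraries) and of diets in mdx muscle (6 libraries). Points left of the line are lower at 18 h or on PLX. In the left panel the 9 values run from -1.23 to -0.07, and Vegfa is at -1.08 after injury and 0.49 in mdx muscle.

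In mdx muscle after 6 months on diet, Vegfa was again the gene with the clearest separation, and here PLX libraries were the higher ones. None of the 9 tested genes passed, where 16 of 10197 did (0.157%), and 1 had an unadjusted p under 0.05, against 16.2% of all genes. Vegfa measured 35.6, 31.7 and 38.3 FPKM in the controls and 47.5, 52.2 and 48.9 on PLX. Every PLX library was above every control, as in 11.4% of all genes tested, and the mean was 1.41-fold higher (49.6 ± 2.40 against 35.2 ± 3.34 FPKM, SD, n = 3 each). The log2 change was 0.49 (SE 0.0973, limma adjusted p = 0.104), and its adjusted p over the other settings ran from 0.0770 to 0.325.

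Other VEGF ligands stood the same way in mdx muscle. Vegfb measured 111, 86.0 and 120 FPKM in the controls and 156, 122 and 144 on PLX, without overlap, with a log2 change of 0.41 (SE 0.151, limma adjusted p = 0.260). Figf measured 2.57, 2.69 and 2.40 FPKM in the controls and 4.91, 4.15 and 3.94 on PLX, with a log2 change of 0.58 (SE 0.102, limma adjusted p = 0.0917). The log2 change of Figf was thus positive after injury and in mdx muscle, while those of Vegfa and Vegfb differed in sign. Of the 4 tested genes of that list none passed, 2 had an unadjusted p under 0.05 and 3 were positive. Nrp1 had 0.21 (limma adjusted p = 0.534). Macrophage markers summed to 32.3 to 222 FPKM in the controls and 22.8 to 63.0 on PLX, and fibre markers to 118719 to 123201 and 103243 to 119724, in these libraries.

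**Figure D4:**
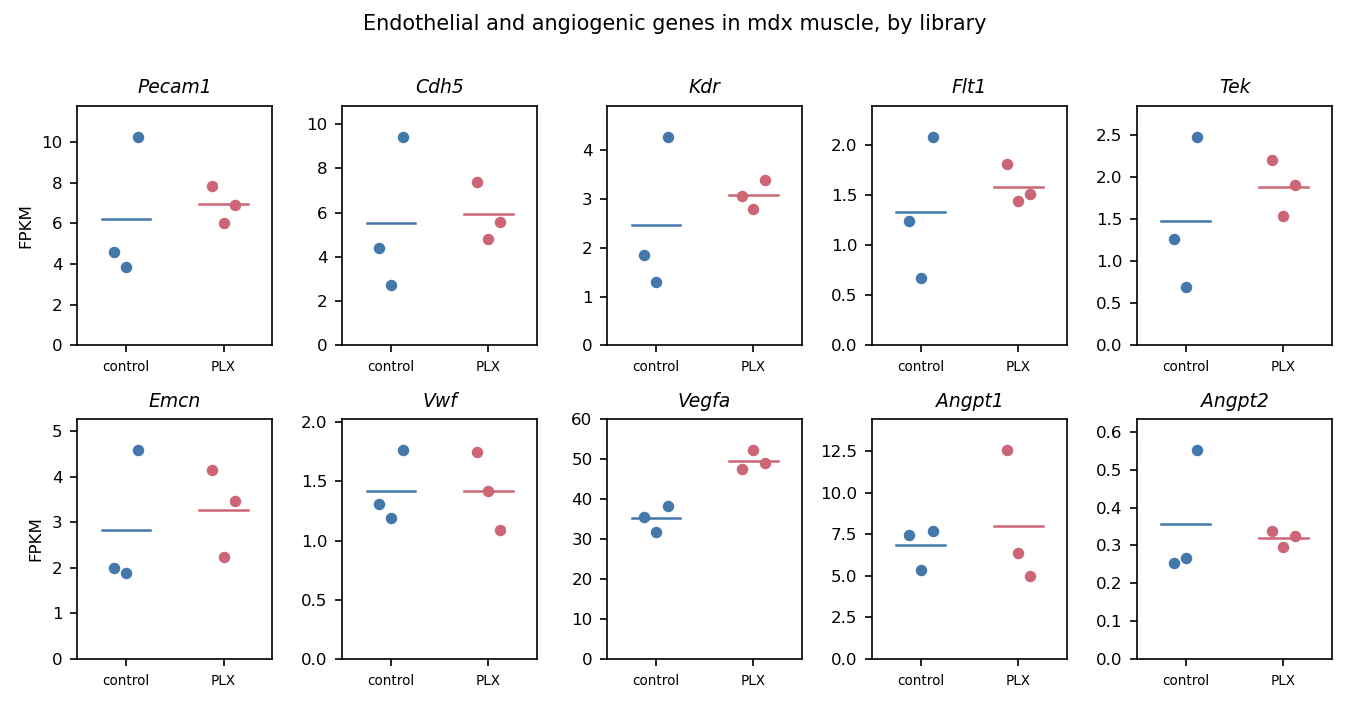
FPKM of the 10 genes in mdx muscle by diet, 1 point per library, with bars at the mean of 3 libraries, on linear axes that start at 0. Control replicates spread widely for the endothelial genes, with Cdh5 between 2.75 and 9.42 FPKM, and the diets separate for Vegfa.

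The endothelial genes varied more among the 3 control muscles than between diets. Cdh5 measured 4.39, 2.75 and 9.42 FPKM in control replicates 1 to 3 and 7.37, 4.83 and 5.57 in PLX replicates 1 to 3. Pecam1 measured 4.60, 3.83 and 10.2 FPKM in the controls and 7.84, 6.03 and 6.90 on PLX. In both, control replicate 3 was the highest and control replicate 2 the lowest of all 6 libraries, 3.42-fold apart for Cdh5 and 2.67-fold for Pecam1.

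Kdr measured 1.84, 1.30 and 4.27 FPKM in the controls and 3.07, 2.80 and 3.38 on PLX. Flt1 measured 1.24, 0.668 and 2.08 FPKM in the controls and 1.81, 1.44 and 1.51 on PLX. The receptors had the same 2 controls at their extremes. Tek measured 1.26, 0.695 and 2.48 FPKM in the controls and 2.20, 1.54 and 1.90 on PLX, and Emcn 2.00, 1.90 and 4.58 against 4.14, 2.23 and 3.46. Control replicates 2 and 3 were 3.56-fold apart for Tek and 1.21-fold for Vegfa.

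The log2 change by diet was 0.23 for Pecam1 (limma adjusted p = 0.728), 0.20 for Cdh5 (limma adjusted p = 0.803), 0.33 for Kdr (limma adjusted p = 0.596) and 0.27 for Tek (limma adjusted p = 0.624). The values were 0.19 for Flt1 (limma adjusted p = 0.694) and 0.20 for Emcn (limma adjusted p = 0.749). The median over the 9 tested genes was 0.20, against -0.00 for all genes. It moved to 0.55 without control replicate 3, when 6 of 9 had an unadjusted p under 0.05, and to -0.01 without control replicate 2, when 5 of 9 were negative. None passed the adjusted threshold in either case.

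Vwf measured 1.31, 1.19 and 1.76 FPKM in the controls and 1.75, 1.42 and 1.09 on PLX, with the same mean in both diets (1.42 ± 0.302 and 1.42 ± 0.332 FPKM, SD, n = 3 each). Angpt1 was well expressed in mdx muscle, at 7.47, 5.35 and 7.71 FPKM in the controls and 12.5, 6.38 and 4.99 on PLX. PLX replicates 1 and 3 were the highest and the lowest of the 6, and the log2 change was 0.12 (limma adjusted p = 0.869). Angpt2 was under the filter, at 0.253 to 0.551 FPKM in the controls and 0.297 to 0.337 on PLX. The balance of the 2 angiopoietins thus stood opposite to that in injured muscle: Angpt1 lay above Angpt2 in all 6 mdx libraries, and Angpt2 above Angpt1 in all 6 injured libraries.

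Of 20 tested endothelial markers 18 were positive on PLX in mdx muscle. Their median log2 change was 0.23, against -0.0028 for all genes, and the share of all genes that were positive is not given here. None passed and 1 had an unadjusted p under 0.05, against 16.2% of all genes. All 26 markers summed to 126 to 200 FPKM in the controls and 170 to 187 on PLX, so the controls held both extremes. Their most abundant members were Tspan7, a tetraspanin (0.11, limma adjusted p = 0.530), and Cd34, a sialomucin of endothelium and progenitors (0.63, limma adjusted p = 0.317). No gene of the angiopoietin (6 tested), tip cell and Notch (9), activated endothelium (4), hypoxia (18) or inhibitor (8) lists passed. At an unadjusted p under 0.05 the counts were 0, 2, 0, 5 and 1, against 16.2% of all genes. Pericyte and smooth muscle markers summed to 80.9 to 84.0 FPKM in the controls and 74.8 to 83.0 on PLX.

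Across the 12 whole muscle libraries, the genes whose pattern was most like that of Cdh5 were sought among 5611 genes averaging 5 FPKM or more in both tables. Pearson's r of log2(FPKM + 1), centred on the mean of each table, was highest for Aqp1, a water channel (0.971), Pecam1 (0.932), Lrp5, a Wnt coreceptor (0.928), Rgs5, a pericyte gene (0.906), and Cldn5 (0.903). Of the 10 genes, Flt1 (0.944), Tek (0.914) and Kdr (0.908) were close to Cdh5, Angpt2 (0.816) and Emcn (0.749) less so, and Vwf (0.474), Vegfa (0.412) and Angpt1 (0.279) least. These are descriptions, since points of a table share diet, time and tissue content.

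The genes most like Vegfa were other ones: Slc38a2, an amino acid transporter (0.968), Ankrd33b (0.957), Cebpg, a transcription factor (0.945), Pdhx, a subunit of the pyruvate dehydrogenase complex (0.945), and Fam57b (0.943). Within injured muscle these 5 had r between 0.971 and 0.989, and within mdx muscle between 0.637 and 0.933.

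In sorted resident macrophages the endothelial transcripts were abundant. Cdh5 measured 76.2 FPKM in the MHCII- GFP- gate, 60.1 in MHCII- GFP+, 73.6 in MHCII+ GFP- and 49.96 in MHCII+ GFP+. Pecam1 measured 69.5, 67.8, 80.0 and 50.4 FPKM in the same order. The values of Cdh5 lay within the range of injured whole muscle, 28.3 to 86.7 FPKM, and all gates expressed both genes, with MHCII+ GFP+ the lowest. All 26 endothelial markers were at 1 FPKM or more in every gate and summed to 545 to 758 FPKM, against 714 to 1184 in injured muscle and 126 to 200 in mdx muscle.

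The gates hold macrophages by their own markers, which summed to 6317 to 9244 FPKM. They also held transcripts of other cells of the tissue: pericyte and smooth muscle markers summed to 208 to 409 FPKM, with all 10 at 1 FPKM or more, and muscle fibre markers to 125 to 205. The sort selected cells with CD45, a marker of blood cells that endothelium does not make. The source of the endothelial transcripts was not tested.

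**Figure D5:**
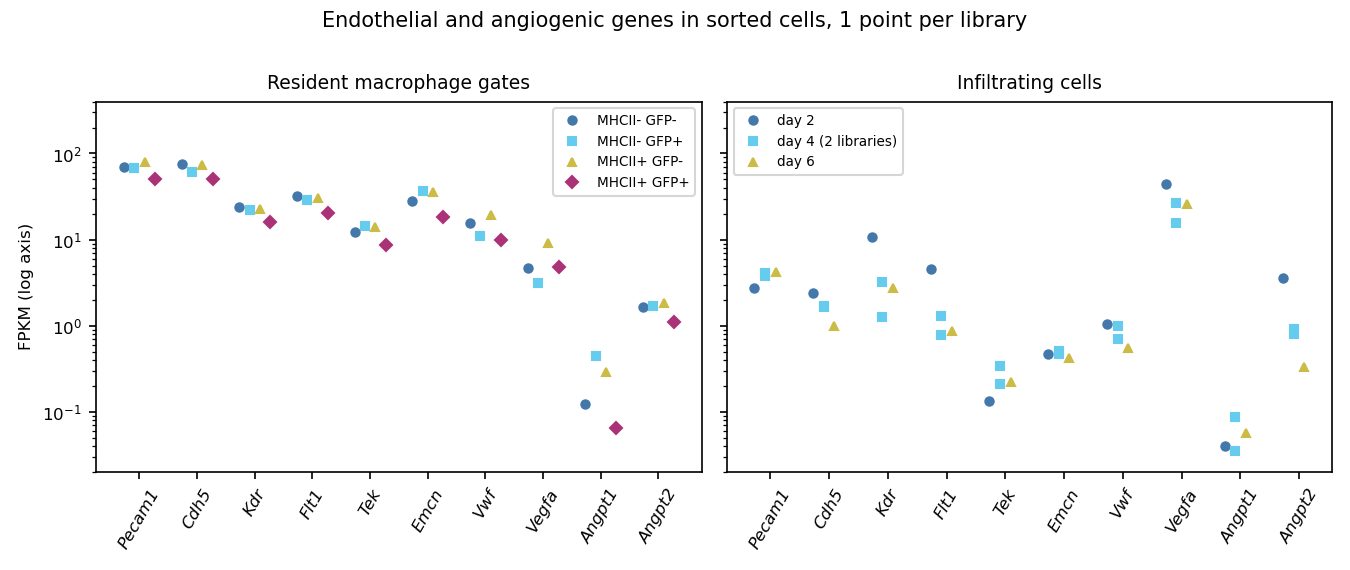
FPKM of the 10 genes, on a log axis, in the 4 resident macrophage gates and in infiltrating cells on days 2, 4 and 6, 1 point per library. The MHCII+ GFP+ gate is the lowest of the 4 for most genes, with Cdh5 at 49.96 FPKM, and Angpt2, Flt1 and Kdr are highest in the day 2 library of infiltrating cells.

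Kdr measured 24.0, 22.1, 22.8 and 16.0 FPKM (MHCII- GFP-, MHCII- GFP+, MHCII+ GFP- and MHCII+ GFP+), and Flt1 measured 31.7, 28.7, 30.8 and 20.1 in that order. Tek measured 12.2, 14.6, 14.0 and 8.55 FPKM, and Angpt2 1.64, 1.72, 1.86 and 1.10. The MHCII+ GFP+ gate was the lowest for all 4, while the other 3 stood close together. Emcn measured 28.4, 36.5, 35.7 and 18.5 FPKM, and Vwf 15.7, 11.1, 19.5 and 9.81. For these 2 genes the same gate was lowest, and the highest gate was close to 2-fold above it (1.97-fold and 1.99-fold).

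Of the 9 genes averaging 1 FPKM or more, 8 were lowest in the MHCII+ GFP+ gate, where 21.9% of 11872 such genes were. The exception was Vegfa, at 4.68, 3.13, 9.02 and 4.82 FPKM, lowest in MHCII- GFP+ and highest in MHCII+ GFP-. For Pecam1, Cdh5, Kdr, Flt1, Tek, Emcn and Vwf the MHCII+ GFP+ level was 55.3 to 71.4% of the mean of the other gates. For the 26 other endothelial markers it was 53.3 to 103%, with a median of 73.0%, and 15 were lowest there. The median over all genes was 99.0%. Summed markers of pericytes and smooth muscle were also lowest in that gate, at 208 FPKM against 234 to 409 in the others, and so were those of fibro-adipogenic progenitors, at 120 against 149 to 200. Muscle fibre markers, at 177 against 125 to 205, and macrophage markers, at 8573 against 6317 to 9244, were not. The part of other tissue cells in the low endothelial values of that gate was not tested. Each gate is 1 library, so no difference between gates could be tested.

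The levels of the receptors were also set against that of Cdh5 in the same library. Kdr stood at 30.9 to 36.7% of the FPKM of Cdh5 in the 4 gates, 13.0 to 23.0% in injured muscle and 41.7 to 60.7% in mdx muscle. Flt1 stood at 40.3 to 47.7% in the gates, 12.0 to 18.0% in injured muscle and 22.0 to 29.7% in mdx muscle. Tek varied more among the gates, at 16.0 to 24.2%, and stood at 7.80 to 14.8% in injured muscle and 25.2 to 34.1% in mdx muscle. Vegfa stood apart from the endothelial genes, at 5.21 to 12.3% of Cdh5 in the gates and 50.5 to 174% in injured muscle. Angpt1, at 0.0643 to 0.440 FPKM, was the lowest of the 10 genes in all gates.

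Infiltrating cells had a different mix: little endothelial transcript and much Vegfa. Vegfa measured 44.7 FPKM at day 2, 26.4 and 15.7 at day 4 and 26.0 at day 6, and was the highest of the 10 genes in each library. Cdh5 measured 2.37, 1.66, 1.69 and 0.983 FPKM in that order, and Pecam1 2.71, 4.07, 3.75 and 4.20. The 26 endothelial markers summed to 68.8 to 95.1 FPKM, with 8 to 11 of them at 1 FPKM or more. Emcn, at 0.426 to 0.509 FPKM, Tek, at 0.134 to 0.338, and Angpt1, at 0.0351 to 0.0861, were under 1 FPKM in all 4 libraries. Vwf measured 1.04 FPKM at day 2, 0.996 and 0.694 at day 4 and 0.556 at day 6.

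The VEGF receptors and Angpt2 were highest in the day 2 library. Kdr measured 10.9 FPKM at day 2, 3.21 and 1.25 at day 4 and 2.77 at day 6, and Flt1 measured 4.52, 1.31, 0.771 and 0.861. Angpt2 measured 3.62, 0.905, 0.808 and 0.332 FPKM. For these 3 the day 2 value lay above the other 3 libraries, and it was 3.92-fold the day 6 value for Kdr, 5.25-fold for Flt1 and 10.9-fold for Angpt2. Of the 6 genes averaging 1 FPKM or more, these 3 were at least 2-fold lower on day 6 on the FPKM + 1 scale. That held for 4.14% of 9805 such genes. Flt1 and Angpt2 reached that average only through the day 2 library, where they were high. The 2 shares are therefore not like for like, and no conclusion is drawn from them. Cdh5, at 2.41-fold in plain FPKM, fell short on the FPKM + 1 scale. Kdr lay above Cdh5 on day 2, at 459% of its FPKM, and stood at 73.9 to 282% in the later libraries.

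In the same cells macrophage markers summed to 3207 FPKM at day 2, 7923 and 9112 at day 4 and 8560 at day 6, and lymphatic endothelial markers to 53.4 FPKM on day 2 and 9.37 to 10.9 later. The lymphatic sum was almost all Pdpn, which macrophages and fibroblasts can also make, at 53.1 FPKM on day 2. The other 5 lymphatic markers were under 1 FPKM there, with Prox1, the transcription factor that defines lymphatic endothelium, at 0.0138 and Mmrn1 at 0. The part of macrophage content and of Pdpn in the day 2 values was not tested. Library titles also carry a quantity that differs between all 4 libraries and that the labels do not explain. With 1 library on days 2 and 6, the difference between days has no replicate check.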

How the data were processed

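The authors deposited FPKM values (fragments scaled by transcript length and library size) in 4 tables, 1 per experiment. The submitters' processing notes name STAR, Bowtie, Cufflinks and bcl2fastq, and the build mm10. No version, role or setting of these is given in the sources used here. Libraries were made with a stranded mRNA kit and read as pairs of 43 bases, per the labels' protocols. Names turned into dates (50) and 2 overwritten entries were dropped. The lowest value is 0.01 FPKM, a floor, in all but the infiltrating table. FPKM are relative to the library, so a large change in abundant fibre transcripts shifts the others.

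Samples were grouped by the labels. Genes averaging 1 FPKM or more were fitted as log2(FPKM + 1) with limma-trend (limma 3.58.1, R 4.3.3), two-sided, with Benjamini-Hochberg adjustment over all tested genes and a threshold of 0.05. The injury model had hours and diet, a model of 4 cell means gave the difference in diet effect, and the mdx model had diet. Each table was tested alone. The 10 genes and the lists were chosen with earlier results of these data known. From each list, up to 4 genes that passed with the largest changes and up to 2 that did not, with the highest levels, are named. Marker lists stand beside the results as sums, and other markers are named where a result turns on them. Sorted cells, with 1 library in most groups, were described without a test. Genes most like Cdh5 and Vegfa were the top 5 by Pearson's r. The fits were tested on simulated data. Python 3.11.15, numpy 2.4.6, pandas 2.3.3 and matplotlib 3.10.9 were used. Alternatives were other pseudocounts, filters and scalings, left-out libraries, and terms for title number and reporter.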

Additional observations from a re-analysis of the deposited data

Results flagged for a closer look

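Vegfa and Vegfb were flagged because PLX libraries lay above controls in mdx muscle and below controls of the same time after injury. Each separation alone was common: 23.3% of all genes tested were lower within each time after injury, and 11.4% were higher in mdx muscle. The share of all genes with both was not computed, so how unusual the opposite separation is remains unknown. Vegfa had a log2 change of 0.49 in mdx muscle, where every PLX library was above every control, and of -1.08 after injury, where every PLX library was below the controls of its time. Vegfb had 0.41 in mdx muscle and -0.82 after injury, with the same separation. The difference between the experiments was not tested, because the tables were normalized separately. The experiments also differ in strain, sex, age, length of diet, withdrawal of the diet and injury, and these cannot be told apart. Of these 4 values, only that of Vegfb after injury passed the adjusted threshold in limma.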

How the results depend on the processing

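The 10 genes kept 0 calls between times under every setting except without the control library of 12 h, with a range of 0 to 3 when 1 library was left out. Between diets after injury the count was 0 to 1 with 1 library left out, 1 with a minimum of 5 FPKM and 1 with the 18 h libraries only, each time Vegfa. It was 0 in mdx muscle under all settings. Counts over all genes depended more on the setting. Between times, 9 genes passed, and the count was 2 without a filter, 26 at 5 FPKM, 2 with quantile normalization, 3 with title number, 2 without a diet term, and 2 to 1901 with 1 library left out. Between diets after injury, 1349 passed (46.6% of them higher), and the count was 5 without a filter, 462 with title number, 2326 at 18 h only, 486 without hours, and 0 to 2246 with 1 library left out. It was 1470 with upper quartile scaling (57.9% of them higher). For the difference in diet effect, 7 passed, against 0 at a pseudocount of 0.1, 502 without a filter, 2 at 5 FPKM, 2 with title number and 2 to 9 with 1 library left out. The model could not be fitted without a 12 h library. In mdx muscle 16 passed, against 1 without a filter, 4 with upper quartile scaling, 7 with quantile normalization, 8 with reporter genotype and 0 to 120 with 1 library left out. The number of the 8 genes not overlapping relative to Pecam1 and Cdh5, 4, was 4 to 7 with 1 library left out. The cause of these shifts was not tested, except that fewer or more genes were tested under other filters.

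Between diets after injury the sign turned for Pecam1 with quantile normalization (0.077), and at 18 h only for Cdh5 (-0.051) and Flt1 (-0.12). With 1 library left out it ran from -0.19 to 0.039 for Pecam1, -0.051 to 0.36 for Cdh5, -0.12 to 0.40 for Flt1 and -0.18 to 0.074 for Tek. For the difference in diet effect, the sign turned with upper quartile scaling and with quantile normalization for Pecam1 (-0.14 and -0.28) and Kdr (-0.11 and -0.042), and left-out ranges were -0.18 to 0.23 for Pecam1, -0.16 to 0.26 for Kdr and -0.40 to 0.036 for Tek. For Vwf between times the range was -0.42 to 0.29. In mdx muscle the ranges were -0.0083 to 0.60 for Pecam1, -0.13 to 0.61 for Cdh5, -0.027 to 0.41 for Flt1, -0.10 to 0.10 for Vwf and -0.22 to 0.36 for Angpt1.

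The labels number no replicates, so no replicate number pairs libraries. The mdx titles start with 81A, 82A or 81D, each on 1 library per diet. A fit with that start as a block, chosen after seeing the data, called 15 genes and none of the 10. The alternatives for sorted cells and for levels relative to Pecam1 and Cdh5 were also chosen after seeing the data. Without the filter on low values, Angpt1 (0.0643 FPKM) joined the 8 genes lowest in the MHCII+ GFP+ gate. With a pseudocount of 0.1, Cdh5 joined the 3 genes at least 2-fold lower on day 6 than on day 2. Low FPKM limits what can be read for Angpt1 in injured muscle and Angpt2 in mdx muscle, since depth is unknown there.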
